A study of Mus musculus with 3 samples.

Results

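AH2 is a mouse pre-B cell line transformed by v-Abl, and an NBS1 ChIP-seq library, made with a monoclonal rabbit antibody, and an input library were sequenced from it. Chromatin was crosslinked with formaldehyde and sonicated, and the DNA was read on a SOLiD sequencer. Input is chromatin that was not selected with an antibody, so a peak in it marks a place where reads pile up without such selection. The members described here are the peaks of these 2 libraries on the placed autosomes, chromosomes 1 to 19. Sequences named random and the X, Y and mitochondrial chromosomes were left out by rule. Of 5201 AH2 NBS1 peaks 4539 were kept (87.3%), and of 11903 AH2 input peaks 10948 (92.0%), together 15487 of the 20296 peaks in the 3 lists used. The third list, NBS1 peaks of the v-Abl pre-B line R2K.Artm (2738 on autosomes), took no part in choosing members and is quoted beside the AH2 values. Genotype is given as not applicable for both lines, and no treatment is named for either. Each line is a transformed culture, and its labels give no immunoglobulin rearrangement state or cell cycle phase. There is 1 library per group, so no value has a replicate error and no test between groups was possible. Intervals in this text are 95% intervals of counting error only, and they treat peaks as independent, which neighbouring peaks are not.

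NBS1 works in a complex with MRE11 and RAD50 that holds and processes the ends of DNA double-strand breaks, and NBS1 passes the signal to the ATM kinase. Developing B cells make such breaks on purpose when the RAG1/2 recombinase cuts immunoglobulin genes, and the title of the series is about RAG1/2 breaks at other loci. In ChIP-seq, places with many copies in the cell but few in the reference, such as satellites and other repeats, gather reads with or without an antibody. An input library from the same line shows such places, and comparing the pair asks where the NBS1 list differs from them.

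The number of peaks does not measure binding, because the depth of the libraries is unknown and the control used in each peak call is not given in the sources used here. Input had 4.54 autosomal peaks per Mb and NBS1 1.88 per Mb. Each list was therefore set against its own total. The score is the value written by the authors' peak caller and has a minimum of 50 in both lists. It reached 100 for 1091 NBS1 peaks (24.0%) and for 1210 input peaks (11.1%), but with depth and control unknown the same score need not mean the same strength in both lists.

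The lists were compared most finely in 1 Mb bins, with each peak counted at its midpoint. The autosomes gave 2424 bins with a mean of 1.87 NBS1 and 4.52 input peaks. NBS1 peaks were absent from 452 bins and input peaks from 78, and 1922 bins had both. The 24 fullest bins of each list, 1% of all bins, held 6.23% of NBS1 peaks and 4.20% of input peaks. Across the 2424 bins the counts of the lists went together weakly (Pearson r 0.32, Spearman rho 0.21), as a description of bins that share a reference genome and its mappability. Without the 10 fullest NBS1 bins r was 0.26.

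A bin was called denser in a list when it held at least 10 peaks of both lists together and the share of that list in the bin was at least 2 times the share of the other. A count of 0 was set to 3 counts for this ratio. Of 381 bins with enough peaks, 41 were called denser in NBS1 (10.8%) and 80 denser in input (21%). Because input has more peaks, the minimum is met more by input: the 381 bins held 30.4% of NBS1 and 32.6% of input peaks. Few intervals excluded 1. The interval of the ratio lay above 1 in 8 of the 381 bins (2.1%), all of them among the 41, and below 1 in 12 bins (3.15%), of which 4 were among the 80. All but 1 of those 12 had no NBS1 peak. By its construction an exact 95% interval misses in at most 5% of cases over both sides, and in fewer where counts are small. That holds for independent peaks, which these are not. The share of bins expected from counting error alone was not computed.

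**Figure D1:**
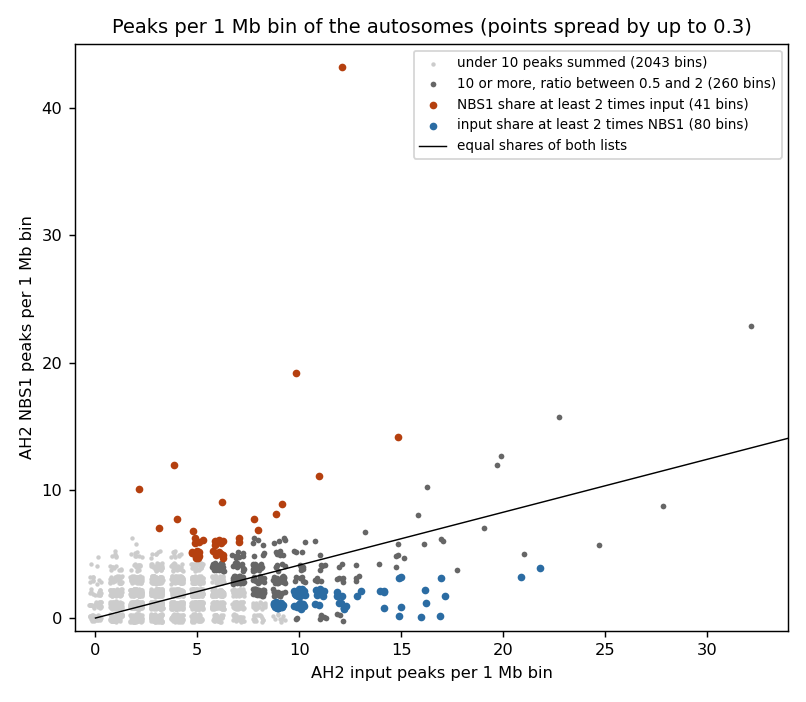
Each point is a 1 Mb bin of the autosomes, with AH2 input peaks on the x axis and AH2 NBS1 peaks on the y axis, in 1 library each. Most bins hold few peaks of both lists (means of 1.87 and 4.52), and a single bin of chromosome 8 stands at 43 NBS1 and 12 input peaks.

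The 8 bins with an interval above 1 were few in kind. Of these, 3 were adjacent on chromosome 13, and the others lay on chromosome 8, on chromosome 6 (2 bins) and on chromosome 11 (2 bins). Together they held 122 NBS1 peaks (2.69% of the list) and 56 input peaks (0.512%). The R2K.Artm NBS1 list, which was not used to find them, had 58 peaks there, a mean of 7.25 per bin against its mean of 1.13 over all bins. These 58 were unevenly spread. The chromosome 8 bin had 24, and the chromosome 11 bin from 3000001, where 12 of 14 AH2 NBS1 peaks overlapped input, had 13. The chromosome 13 bins had 4, 5 and 8, the chromosome 6 bins 2 and 0, and the chromosome 11 bin from 68000001 had 2. The 41 called bins held 133 R2K.Artm NBS1 peaks, a mean of 3.24 per bin, and the 58 of these 8 bins are among them. The mean of the called bins without the 8 was not computed. In the 80 bins denser in input the R2K.Artm mean was 1.11, and in the other 260 bins 1.94.

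The fullest NBS1 bin was on chromosome 8 at 126000001 to 127000000. It held 43 AH2 NBS1 peaks against 12 of input, and 24 R2K.Artm NBS1 peaks. The NBS1 share was 8.64 times the input share (interval 4.48 to 18). This end of mouse chromosome 8 is known for its tandem array of 5S ribosomal RNA genes, which RNA polymerase III transcribes. That is background from general knowledge, since no mm9 annotation was used here.

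The NBS1 peaks of this bin formed a ladder. From 126062658 to 126147677, over 85.0 kb, there were 41 of the 43 peaks, each under 10 kb from the next. The median of the short steps between midpoints (those under 1.5 times the median step) was 1699 bp, a measure added after the ladder had been seen. Of the 40 steps, 32 were a single such period (1617 to 1744 bp), 6 were 2 periods and 2 were 3 periods, and no step departed from a whole number of periods by more than 82 bp. The peaks were narrow, with a median width of 116 bp, and their scores ran from 50.7 to 233.

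R2K.Artm NBS1 had 22 peaks over the same 85.0 kb, and 21 of them lay within 100 bp of an AH2 NBS1 midpoint, with a median offset of 18.5 bp. The steps between them also departed from whole periods by at most 87 bp. Input had 3 peaks there, with midpoints 174 to 953 bp from the nearest NBS1 midpoint and scores of 55.5 to 57.5, and 1 of the 41 NBS1 peaks overlapped an input peak. The excess of this bin rests on counting each rung of the ladder. With peaks of a list under 10 kb apart joined and counted once, the bin had 3 NBS1 and 12 input intervals and a ratio of 0.597 (0.108 to 2.21).

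Chromosome 13 held 3 adjacent bins, from 21000001 to 24000000, with 41 NBS1 and 16 input peaks in all. Single bins had 10 NBS1 against 2 input peaks, 12 against 4 and 19 against 10, with share ratios of 12.1 (2.57 to 113), 7.24 (2.19 to 30.8) and 4.58 (2.03 to 11.0). Over the whole stretch the ratio was 6.18 (3.39 to 11.8). This part of chromosome 13 is known to carry the largest cluster of replication-dependent histone genes, together with many transfer RNA genes, again as background from general knowledge.

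No NBS1 peak of the stretch overlapped an input peak, and the closest approach was 1.35 kb. R2K.Artm NBS1 had 17 peaks there, and 15 of the 41 AH2 NBS1 peaks overlapped one of them. Of all AH2 NBS1 peaks over 1 kb from input 16.4% overlapped R2K.Artm NBS1, with 52.8% at scores of at least 100 and 11.2% below. Of those overlapping input 70.7% did so. Whether the stretch exceeds what its scores give was not tested. Of the 41 NBS1 peaks, 21 had a score of at least 100 (51.2%, against 24.0% of the whole list), with a median of 106 and a highest value of 498. The highest input score in the stretch was 93.8 within the input list. The widest gap between neighbouring NBS1 peaks was 670 kb, with 21 peaks before it and 20 after. Joining neighbours under 10 kb left ratios of 7.16, 4.18 and 1.59 in the 3 bins, and the interval of the last then included 1 (0.466 to 5.01).

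**Figure D2:**
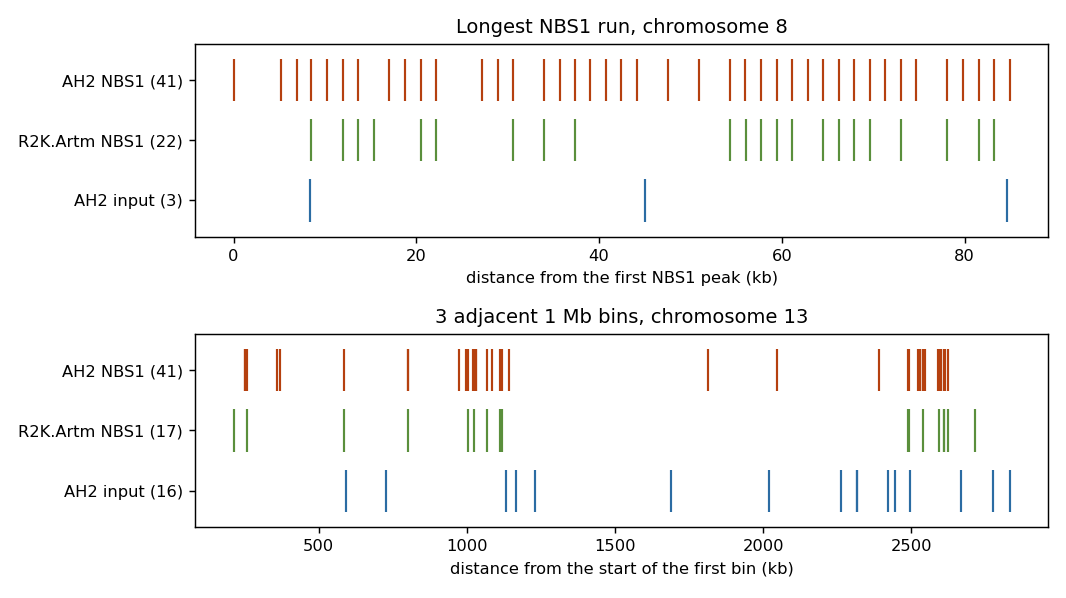
Each vertical tick is the midpoint of a peak, plotted as distance in kb, with 1 row per list and the number of peaks in parentheses. The upper panel shows the regular steps of 41 AH2 NBS1 peaks and the matching positions of R2K.Artm NBS1, and the lower panel shows NBS1 peaks of both lines gathered in groups while none of the 16 input peaks overlaps an AH2 NBS1 peak.

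Other bins near the top of the ratio order had fewer peaks. On chromosome 11 at 68000001 to 69000000 there were 9 NBS1, 6 input and 2 R2K.Artm NBS1 peaks, a ratio of 3.62 (1.15 to 12.4), and all 9 NBS1 peaks fell within 149 kb. Joined neighbours gave 1.59 there (0.330 to 6.71). On chromosome 6 at 29000001 to 30000000 the counts were 7, 3 and 2 in the same order, a ratio of 5.63 (1.28 to 33.7), but 3 of the 7 NBS1 peaks overlapped input peaks, which reached a score of 1893 there. With joined neighbours its interval included 1 (5.97, 0.977 to 62.7). Chromosome 11 at 3000001 to 4000000, near the centromeric end, had 14 NBS1, 15 input and 13 R2K.Artm NBS1 peaks, a ratio of 2.25 (1.01 to 5.00), and 12 of the 14 overlapped input. The 9th highest ratio, 2.89, was shared by 4 bins with 6 NBS1 against 5 input peaks each, on chromosomes 7 (from 36000001), 14 (115000001), 15 (39000001) and 18 (47000001), and their intervals included 1 (0.736 to 12).

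Immunoglobulin loci, where RAG1/2 is known to cut, gave 2 of the 10 highest ratios. Both bins lie at the kappa light chain locus on chromosome 6. This locus and the heavy chain locus were placed from general knowledge of mm9. Whether each peak of a bin falls inside the locus was not checked. The bin at 69000001 to 70000000 had 8 NBS1, 4 input and no R2K.Artm NBS1 peaks, a ratio of 4.82 (1.29 to 21.9). The bin at 70000001 to 71000000 had 7, 5 and 1, a ratio of 3.38 whose interval included 1 (0.923 to 13.5). None of these 15 NBS1 peaks overlapped an input peak, and none overlapped an R2K.Artm NBS1 peak. Their median scores were 59.8 in the first bin and 83.3 in the second, above a list minimum of 50. A score of at least 100 was reached by 1 of the 8 peaks and 2 of the 7. The heavy chain locus held the fullest input bin, on chromosome 12 at 116000001 to 117000000, with 32 input, 23 NBS1 and 5 R2K.Artm NBS1 peaks, and its ratio of 1.73 was not clear of 1 (0.969 to 3.06).

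The bins richest in input were also often rich in NBS1. After the heavy chain bin, a bin of chromosome 8 from 73000001 had the most input peaks (28 input, 9 NBS1). It was followed by the bins of chromosome 6 from 47000001 (25 and 6), chromosome 8 from 19000001 (23 and 16) and chromosome 14 from 4000001 (22 and 4). Of these 5 bins only the last was called, with a ratio of 0.439 (0.110 to 1.29). In the opposite direction, 13 of the 381 bins had no NBS1 peak beside 10 to 17 input peaks. The fullest were at 4000001 to 5000000 and 5000001 to 6000000 on chromosome 19, with 17 and 16 input peaks, 0 and 1 R2K.Artm NBS1 peaks, and ratios of at most 0.585 and 0.625 by their intervals. A count of 0 in a list of 4539 allows a share of up to 0.0661% (3 counts of the total), so bins of this kind were called only from 15 input peaks on, and setting 0 to 3 counts ranks them above bins with 1 NBS1 peak.

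Among bins with at least 1 NBS1 peak, the lowest ratio was on chromosome 15 at 82000001 to 83000000, with 1 NBS1, 16 input and no R2K.Artm NBS1 peaks, at 0.151 (0.00359 to 0.970). The next, on chromosome 12 at 25000001 and chromosome 13 at 54000001, had 1 NBS1 peak against 15 and 14 input peaks, with intervals that reached above 1 (up to 1.05 and 1.13). The other 7 of the 10 lowest in this order had 1 NBS1 peak beside 11 or 12 input peaks.

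The overlap of single peaks gave the second view of the pair. An input peak shared at least 1 base with 1167 of the 4539 NBS1 peaks, 25.7% (24.5 to 27.0%), and an NBS1 peak did so with 1158 of the 10948 input peaks, 10.6% (10.0 to 11.2%). Where they met, the intervals were nearly centred on each other. The midpoints were a median of 19.5 bp apart (middle 50% of pairs 7 to 35 bp), and input covered a median of 93.2% of the NBS1 peak. The input peak was the wider in 57.2% of pairs. No pair had identical ends.

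Few peaks of the lists were near each other without touching. The nearest input peak was within 1 kb but not overlapping for 89 NBS1 peaks (1.96%), at 1 to 10 kb for 298 (6.57%), at 10 to 100 kb for 1521 (33.5%) and beyond 100 kb for 1464 (32.3%). Within 10 kb, overlaps included, lay 34.2% of NBS1 peaks (32.9 to 35.6%), and 15.2% of input peaks had an NBS1 peak that close (14.5 to 15.8%). The median distance of NBS1 peaks with no overlap was 82.5 kb (77.7 to 86.7 kb), and in the other direction it was 195 kb (189 to 201 kb), where the smaller number of NBS1 peaks makes distances longer.

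Peaks shared by NBS1 and input had higher scores within their own lists. The median NBS1 score was 118 for overlapping peaks and 59.3 to 60.3 in each of the farther distance classes, so distance beyond the overlap made little difference to it. The median input score was 129 for overlapping peaks and 58.1 to 63.1 in the other classes. R2K.Artm NBS1 overlapped 70.7% of the shared NBS1 peaks (68.0 to 73.2%), 20.2% of those within 1 kb of input (13.2 to 29.7%) and 15.1 to 17.0% of those farther away.

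**Figure D3:**
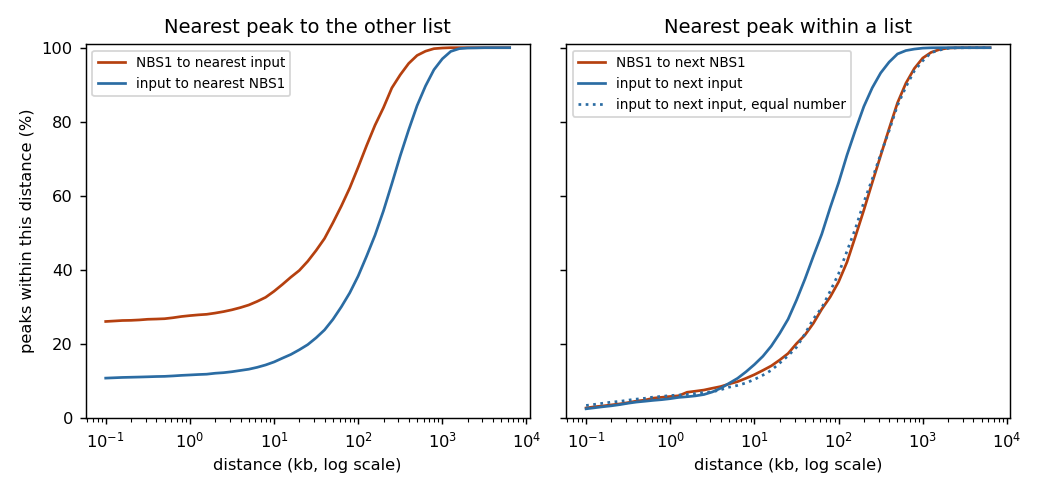
The curves give the percentage of peaks, on the y axis, whose nearest peak lies within the distance in kb on the log x axis, for the other list (left) and the same list (right). The curve of NBS1 to input starts with 26.1% at 100 bp, where the overlap alone is 25.7%, and is nearly flat up to 1 kb (27.7%). The spacing of NBS1 lies close to that of input limited to an equal number of peaks.

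NBS1 peaks away from input were examined by score. Of the 3283 NBS1 peaks over 1 kb from any input peak, 405 had a score of at least 100, and 214 of these overlapped an R2K.Artm NBS1 peak, 52.8% (48.0 to 57.7%). Of the 2878 with lower scores 323 did so, 11.2% (10.1 to 12.4%). For input peaks over 1 kb from NBS1 the overlaps were 52 of 462 at scores of at least 100 (11.3%, 8.69 to 14.5%) and 92 of 9211 below (0.999%, 0.815 to 1.22%). These input peaks were picked for having no AH2 NBS1 peak nearby, so a low overlap with another NBS1 list was partly set by that choice. Of the 1158 input peaks that overlapped AH2 NBS1, 818 overlapped R2K.Artm NBS1 (70.6%). The input and NBS1 percentages therefore cannot be set against each other.

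The 10 highest-scoring NBS1 peaks over 1 kb from input all overlapped R2K.Artm NBS1. Of them, 4 lay in the chromosome 13 stretch: 22066890 to 22066979 (score 498), 23622211 to 23622295 (460), 21802860 to 21802994 (404) and 22023036 to 22023182 (375). Chromosome 14 had 2, at 37669136 to 37669205 (434) and 103863816 to 103864102 (407). The other 4 were single peaks, at 4338988 to 4339121 on chromosome 3 (459), 100852961 to 100853145 on chromosome 10 (374), 125973617 to 125973744 on chromosome 2 (366) and 102030185 to 102030320 on chromosome 9 (360). Their nearest input peaks were 38.8 to 450 kb away.

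Among the 10 highest-scoring input peaks over 1 kb from NBS1, 5 overlapped R2K.Artm NBS1. The first was on chromosome 5 at 60434054 to 60434309 (input score 564), and it was one of those 5. The second, on chromosome 1 at 12647497 to 12647964 (455), and the third, on chromosome 15 at 12802623 to 12803180 (355), lay 681 and 772 kb from the nearest AH2 NBS1 peak and did not overlap R2K.Artm NBS1.

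NBS1 peaks were narrower than input peaks. The median width was 117 bp for NBS1 (116 to 118 bp) and 134 bp for input (133 to 135 bp), and the median was the smaller for NBS1 on all 19 chromosomes. Widths under 100 bp made up 31.6% of NBS1 and 15.0% of input peaks. R2K.Artm NBS1 peaks had a median of 143 bp (141 to 145 bp), wider than both AH2 lists. Library depth and the settings of each peak call are unknown here, and their part in the widths was not tested.

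Overlapping peaks had both narrower and wider members than the rest. Of NBS1 peaks in the narrowest of 4 width classes (48 to 91 bp) 29.2% overlapped input, in the next 2 classes 15.2% and 18.1%, and in the widest (139 bp and more) 40.5%. In input, too, the outer classes overlapped more often, with 14.7% in the narrowest, 7.64% and 7.85% in the middle and 11.8% in the widest. Widths of 500 bp or more were found for 55 NBS1 peaks, of which 41 overlapped input. The widest in both lists was the same place, chromosome 1 at 24618368 to 24623076 (4709 bp) in NBS1 and 24618329 to 24623064 (4736 bp) in input. It also overlapped R2K.Artm NBS1, and this part of chromosome 1 is known to carry a long nuclear copy of mitochondrial DNA.

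**Figure D4:**
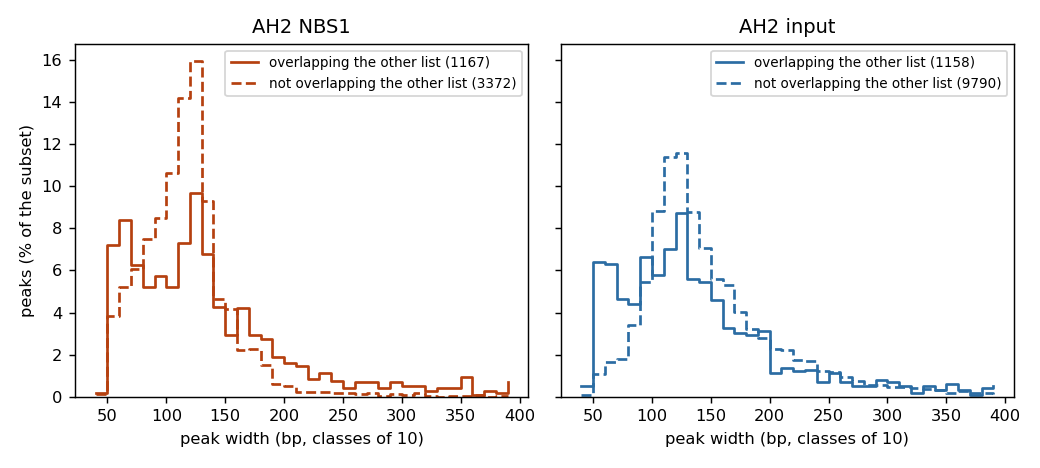
Width distributions of AH2 NBS1 (left) and AH2 input peaks (right) are drawn as the percentage of each subset per 10 bp class, for peaks that overlap the other list and peaks that do not. From 60 to 70 bp lie 8.40% of overlapping and 5.19% of other NBS1 peaks, and 6.30% of overlapping and 1.64% of other input peaks. The widest peaks (72 and 20 of NBS1, 94 and 182 of input) lie beyond the plot.

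Peaks of the larger list lay closer to their neighbours. The nearest NBS1 neighbour of an NBS1 peak was a median of 164 kb away (155 to 172 kb) and that of an input peak 63.7 kb (61.8 to 65.7 kb). With input limited to its 4539 highest-scoring peaks the median was 151 kb (144 to 162 kb). That limit changed score and width as well as number (median width 156 bp), so the part of number alone was not tested. A neighbour within 10 kb was found for 11.7% of NBS1 peaks (10.8 to 12.7%), 14.5% of input peaks (13.8 to 15.1%) and 10.4% of input at equal number (9.59 to 11.4%). In both lists, overlapping peaks had such a neighbour more often, 20.5% against 8.72% of the other NBS1 peaks and 24.4% against 13.3% of the other input peaks.

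Runs of at least 5 peaks, each under 10 kb from the next, were defined after the lists had been seen. NBS1 had 11 with 102 peaks (2.25% of the list). The chromosome 8 ladder was the longest. Of the 11 runs, 5 held at least 5 input peaks as well, the fullest of them on chromosome 2 at 181651996 to 181665726 with 10 NBS1, 8 input and 6 R2K.Artm NBS1 peaks. No input peak lay in 3 runs, which were on chromosome 13 at 23523282 to 23545416 (7 NBS1 peaks) and 22019720 to 22032870 (5) and on chromosome 1 at 173031989 to 173041686 (5). Each of these had 1 R2K.Artm NBS1 peak.

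Whole chromosomes differed little. Density ran from 1.57 to 2.35 NBS1 peaks per Mb and from 3.93 to 5.43 input peaks per Mb. Chromosome 8 was the densest for NBS1 in both lines (2.35 in AH2, 1.49 in R2K.Artm). Its 302 AH2 and 191 R2K.Artm NBS1 peaks include the 41 and 22 of the 85.0 kb ladder. The next densest were chromosome 13 in AH2 (2.03) and chromosome 16 in R2K.Artm (1.33). Densities without the ladder were not computed. The NBS1 share was lowest against input on chromosome 7 (5.18% of NBS1 and 6.33% of input, ratio 0.818, 0.702 to 0.95), chromosome 11 (0.845, 0.723 to 0.985) and chromosome 17 (0.860, 0.719 to 1.03). It was highest on chromosome 6 (6.32% and 5.24%, ratio 1.21, 1.04 to 1.39), chromosome 13 (1.17, 0.999 to 1.37) and chromosome 3 (1.13, 0.985 to 1.30). Intervals excluded 1 for 3 of the 19 chromosomes, and for none of them when input was limited to an equal number of peaks or both lists to scores of at least 100. With that score limit chromosome 11 stood at 1.02, chromosome 6 at 0.873 and chromosome 3 at 0.975. Without the immunoglobulin heavy chain and kappa windows chromosome 6 stood at 1.15, with 1 inside its interval (0.990 to 1.34), and chromosome 13 at 1.18 (1.004 to 1.38). On chromosome 13, the stretch from 21000001 to 24000000 held 41 of the 238 NBS1 peaks and 16 of the 490 input peaks. The chromosome ratio without that stretch was not computed.

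**Figure D5:**
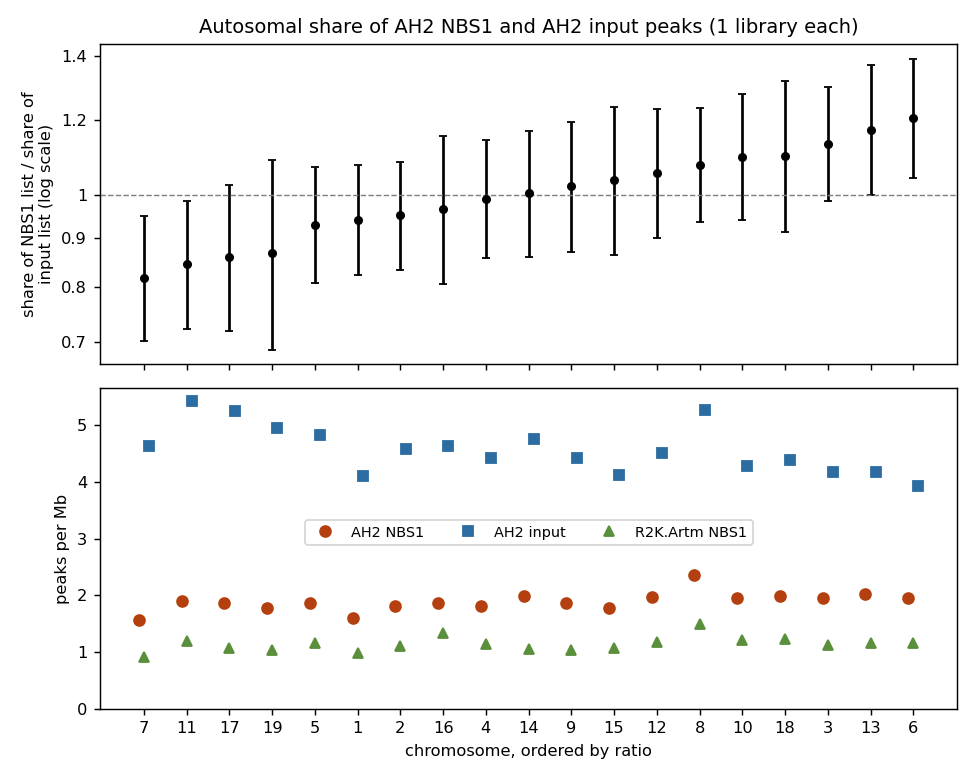
The upper panel gives the ratio of the NBS1 share to the input share per autosome on a log axis, with bars for the 95% counting interval, and the lower panel the peaks per Mb of the 3 lists. The ratios run from 0.818 to 1.21, and the bars include 1 except on chromosomes 7, 11 and 6.

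The share of each chromosome that overlapped differed more than its density. Input overlapped 15.7% of NBS1 peaks on chromosome 7 and 33.9% on chromosome 16, with the other chromosomes between these values. At chromosome ends, the first 5 Mb after the first peak of any list held 5.02% of NBS1 peaks (4.42 to 5.70%) and 6.38% of input peaks (5.93 to 6.85%), a ratio of 0.788 (0.675 to 0.916). This is the centromeric end of mouse autosomes. In the first 2 Mb the shares were 2.86% and 3.05%, with a ratio of 0.939 that included 1 (0.761 to 1.15). The last 5 Mb held 5.02% and 5.20%. These stretches make up 3.94% of the length at 5 Mb and 1.58% at 2 Mb, so each list was denser at both ends than its mean. Every stretch was anchored on a peak of 1 of the 3 lists, so it held a peak by construction. The part of the excess that this gives was not computed.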

How the data were processed

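Peaks were taken from the lists that the authors deposited for AH2 NBS1, AH2 input and R2K.Artm NBS1; the list of AH2 peaks after subtraction was left aside. Reads were placed on mouse build mm9, with Bowtie and MACS 1.4.2 as the tools, per the submitters' processing notes. Neither the Bowtie version nor which control, if any, each peak call had is given in the sources used here. The score of each peak in the deposited lists is the caller's own and ranked peaks only within a list; the limit of 100 was set on each list alike, although equal scores need not mean equal strength. Sequencing depth is unknown.

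Intervals were compared in Python 3.11.15 (numpy 2.4.6, pandas 2.3.3, figures with matplotlib 3.10.9). The overlap search and the bin calls were tested on simulated data. The simulated bins held more peaks on average than the real ones, so that check does not cover calls at the counts found here. The joining of neighbours was not part of it. Positions are 1-based in mm9. Shares carry Wilson intervals, ratios of shares exact Clopper-Pearson intervals conditional on the summed count, and medians order-statistic intervals (scipy 1.17.1), each at 95% and for counting error only. Chromosome length was taken from the first to the last base covered by any of the 3 lists.

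Named are the 10 bins with the highest and the lowest ratios (10 peaks or more, a count of 0 set to 3, ties by the larger sum and then by position), of which the lowest are given in part, the 5 fullest bins per list, the 10 highest-scoring peaks per list over 1 kb from the other list, of which 3 are given for input, the widest peak, and the 3 highest and 3 lowest chromosomes. Bins and runs outside this rule were chosen after their values were seen. The members, lists and rules were chosen with earlier results of these data known. Alternatives were scores of at least 100, equal numbers, 50% coverage, shifted bins, a minimum of 20 peaks, joined neighbours, other distances and exclusion of the Igh and Igk windows (4 Mb each, from general knowledge of mm9). Genes and sequences are not given, because the tables at hand are of build GRCm38 and were not used here.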

Additional observations from a re-analysis of the deposited data

Results flagged for a closer look

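Sequences left out of the comparison held larger shares of the AH2 NBS1 list than of the AH2 input list, with intervals apart, in 3 classes. Chromosome X held 5.71% of NBS1 peaks (5.11 to 6.37%) and 3.90% of input peaks (3.57 to 4.26%), and R2K.Artm NBS1 had 5.64%. The unplaced sequence chrUn_random held 5.29% (4.71 to 5.93%) and 2.46% (2.20 to 2.76%), with 6.70% in R2K.Artm NBS1. Chromosome Y held 0.596% (0.420 to 0.845%) and 0.252% (0.177 to 0.360%), on 31 and 30 peaks, with 0.877% in R2K.Artm NBS1. These shares are of the whole deposited lists, and the cause of the differences was not tested.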

How the results depend on the processing

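No paired analysis was possible because NBS1 and input have 1 library each; none could be omitted either. Across 21 results, 28 of 69 recomputed values stayed within the counting interval of the reported value (counts within 1.5 times of it). Some of the 28 could not change, so they say nothing about stability. At equal numbers the NBS1 list stayed whole, which fixed its median width (117 bp), neighbour share (11.7%) and both end shares (5.02%). No bin with enough peaks had 0 input peaks, so keeping 0 could not alter the 41 NBS1 calls. At scores of at least 100, NBS1 overlapped input for 49.8% of peaks and input overlapped NBS1 for 44.8%. Within 10 kb of the other list were then 51.1% and 47.4%. The last 5 Mb held 6.32% of NBS1 peaks, the first and last 5 Mb held 7.02% and 6.53% of input peaks, the input median width was 152 bp and 11.4% of input peaks had a neighbour within 10 kb. Only 5 bins then had enough peaks, with 2 denser in NBS1 and 0 in input, and 0 chromosomes excluded 1; chromosomes 11 (1.02), 6 (0.873) and 3 (0.975) changed side, and chromosome 13 stood at 1.38. At equal numbers the overlaps were 22.4% and 22.2%, the shares within 10 kb of the other list 27.0% and 27.1%, the input width 156 bp and its neighbour share 10.4%; 10 and 14 of 72 bins were called and 0 chromosomes. With at least 50% coverage the overlaps were 23.6% and 9.47%. A minimum of 20 peaks left 26 bins with 4 and 3 calls, and joined neighbours left 284 with 23 and 43, of which 20 of the 23 were among the 41. Counts of 0 kept as 0, added after seeing the data, gave 41 and 90 calls, and bins shifted by 500 kb 45 and 76. By construction, other distances moved the shares: 27.7% and 67.7% of NBS1 peaks and 11.6% and 38.4% of input peaks lay within 1 kb and 100 kb of the other list, same-list neighbours within 100 kb were 36.8% and 63.5%, and the first and last 2 Mb held 2.86% and 2.14% of NBS1 and 3.05% and 2.13% of input peaks. Apart from these, the cause was not tested. Depth is unknown, and a region with no listed peak holds only signal below the caller's threshold.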

Other observations

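Input had its own dense runs. With the definition used for NBS1, 22 runs held 152 input peaks (1.39% of the list). The fullest were both on chromosome 6, at 47687039 to 47728347 with 13 input and 4 NBS1 peaks and at 47601616 to 47636646 with 12 and 2. Their input peaks were broad, with median widths of 558 and 569 bp, and stood 3.87 and 3.72 kb apart in the median. Runs on chromosome 7 at 67003976 to 67039905 (9 input peaks, median width 584 bp) and at 4996224 to 5013466 (6) had no peak of NBS1 in either line. Runs of both lists met near chromosome starts, on chromosome 16 at 3349895 to 3353152 (5 NBS1 and 6 input peaks) and chromosome 18 at 3004234 to 3011133 (5 and 5), and on chromosome 9 at 123832768 to 123844718 (5 and 5), where R2K.Artm NBS1 had no peak.

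The chromosomes in the next sentence were chosen after the counts were seen. Of 18 bins with enough peaks on chromosome 6, 7 were denser in NBS1 and 1 in input, whereas on chromosome 14 the counts were 2 and 9 of 22 and on chromosome 7 they were 1 and 7 of 23, beside 10.8% and 21% of all 381 bins. The 7 bins of chromosome 6 include the adjacent bins from 68000001, 69000001 and 70000001, at the kappa locus. Among the 7, only the bins from 29000001 and 69000001 had an interval above 1. The 9 of chromosome 14 include the adjacent bins from 3000001, 4000001, 5000001 and 6000001. No test of the spread over chromosomes was run.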
